A study of Mus musculus with 4 samples.

Results

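The expression of 4 peptidylarginine deiminase genes and 5 genes of the cornified envelope was examined in 4T1 cells, a metastatic mouse mammary tumour line that stands in for triple-negative breast cancer. The members were Padi1, Padi2, Padi3, Padi4, Tgm1, Ivl, Sprr1a, Evpl and Ppl, 9 of the 30142 genes that a single symbol named on the arrays. They were chosen by symbol, each had 1 row in the table, and Padi3 was among the genes chosen with its value in the group comparison already known. All differences of these genes between groups are therefore given as a description. RNA came from cells labelled shMCT-1, in which a short hairpin RNA was to silence MCT-1, and from cells with a scramble control (NC), with 2 arrays each. According to the labels, the shMCT-1 cells were clones kept under puromycin at 0.5 μg/ml during 2 weeks of selection. They do not say whether the scramble cells were also selected, or whether the replicates were separate clones, so the spread over 2 arrays covers these samples only.

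Peptidylarginine deiminases are calcium-dependent enzymes that convert arginine residues of proteins to citrulline, which removes a positive charge and loosens protein structure. In the upper epidermis and the hair follicle they modify keratins, filaggrin and trichohyalin. The cornified envelope is the cross-linked protein shell that replaces the plasma membrane of dying keratinocytes: the plakins envoplakin and periplakin and the scaffold protein involucrin line the membrane, transglutaminases join them, and small proline-rich proteins reinforce the shell. The envelope genes are best known from stratified epithelia.

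Values are log2 signals, on which 1 unit is a doubling, and signals of different genes do not compare their amounts of RNA. Medians over all 65956 rows were 3.73 and 3.68 on the arrays labelled shMCT-1 and 3.68 and 3.69 on the NC arrays. Mcts1, which encodes MCT-1, was at 7.81 and 7.89 on the arrays labelled shMCT-1, against 7.86 and 8.05 on the NC arrays, a difference of -0.10 (SE 0.122) that was within the spread between replicates. A lower level of the targeted transcript was therefore not detected, and the group is named by its label throughout. The epithelial markers Epcam, Cdh1, Krt7, Krt8, Krt18 and Krt19 all lay far above background, with a mean signal of 14.6 on both arrays labelled shMCT-1 and of 14.9 and 14.8 on the NC arrays. Among them Krt19 (-1.14) and Cdh1 (-0.30) were lower on both arrays labelled shMCT-1, and the other 4 differed by -0.050 to 0.020. NC replicate 1 was known from earlier results to be high in interferon-induced genes, and 6 of these were listed for that reason. Their mean signal was 6.15 and 5.34 on the arrays labelled shMCT-1, against 9.34 and 5.80 on NC replicates 1 and 2. As a guide to background, the 95th percentile of 1386 olfactory and vomeronasal receptor rows was 3.92. By their mean over the arrays, 8 of the 9 genes lay above it, and Sprr1a lay below.

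Padi3 was the only one of the 9 genes that differed by more than 1 log2 unit between the groups. Its enzyme acts on trichohyalin and keratin-associated proteins of the hair follicle. It was measured at 8.37 and 8.13 on the arrays labelled shMCT-1, against 10.06 and 10.04 on the NC arrays. Both arrays labelled shMCT-1 thus lay far below both NC arrays, and the gap between groups was many times the gap between replicates. The means were 8.25 ± 0.18 and 10.05 ± 0.018 (SD, n = 2 each), a log2 difference of -1.80 (SE 0.130, 95% interval -2.14 to -1.46 in limma), or a 3.49-fold lower signal. Taken by replicate number, the difference was -1.69 for replicate 1 and -1.91 for replicate 2. With 1 array left out it ran from -1.93 to -1.68, and without NC replicate 1 it was -1.79. Of the 30142 genes, 14 had a difference at least this low, Padi3 included, and for 6 of these the groups did not overlap.

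**Figure D1:**
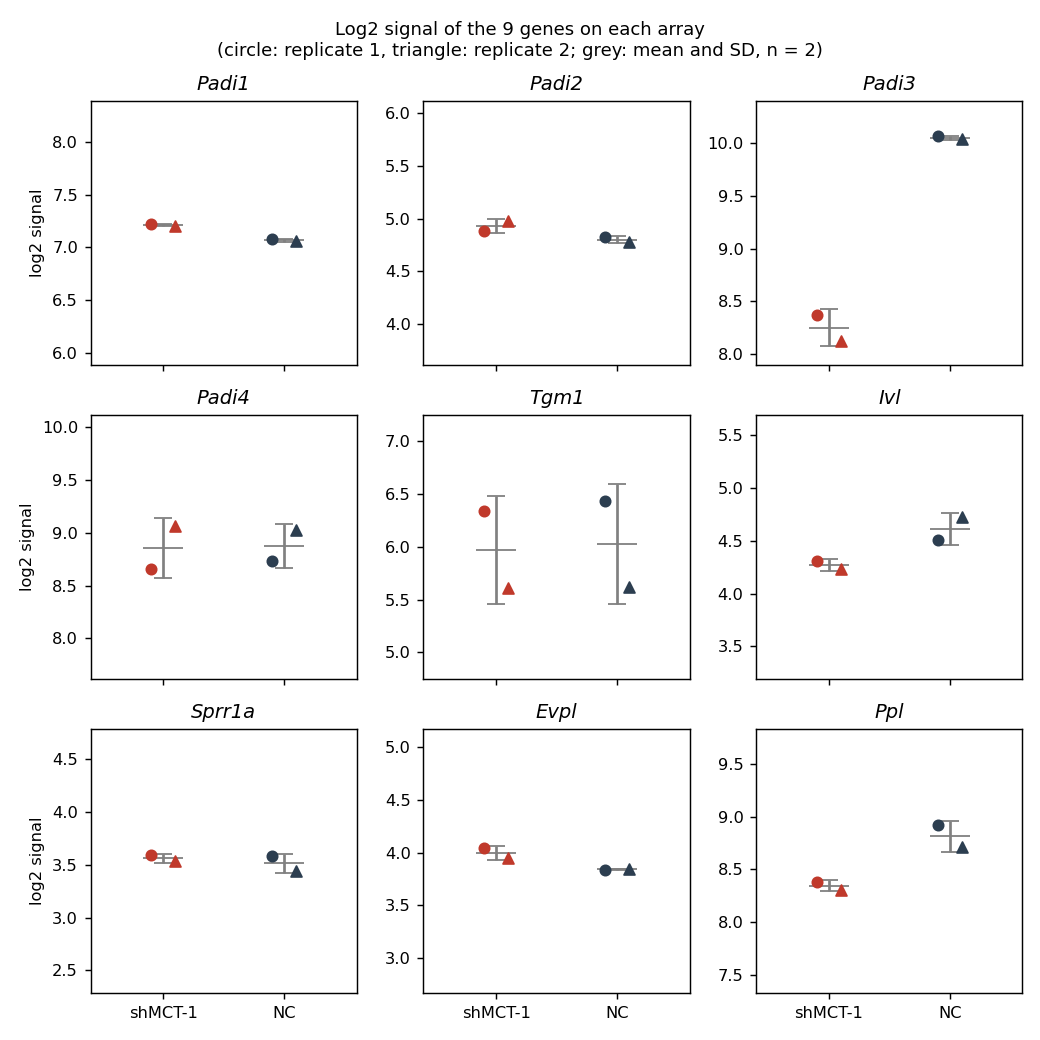
Log2 signal (vertical axis, each panel spanning the same range of log2 units) of the 9 genes on the arrays labelled shMCT-1 (red) and NC (dark blue). Circles are replicate 1, triangles replicate 2, and grey bars the mean and SD over 2 arrays. Padi3 at 8.37 and 8.13 lies below its NC arrays at 10.06 and 10.04, while the replicates of Tgm1 lie further apart than its groups.

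The other deiminases with a signal above background were close between the groups. Padi1, whose enzyme modifies keratins and filaggrin in the epidermis, was at 7.22 and 7.20 on the arrays labelled shMCT-1, against 7.08 and 7.06 on the NC arrays. Both arrays labelled shMCT-1 were thus slightly above both NC arrays, with a difference of 0.15 (SE 0.102, 95% interval -0.12 to 0.41). Padi2, the most widely expressed deiminase, was at 4.89 and 4.98, against 4.82 and 4.78 on the NC arrays. Its difference was 0.13 (SE 0.106, 95% interval -0.15 to 0.41), and its groups overlapped after a further quantile normalisation, where the difference was 0.059.

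Padi4, the deiminase of granulocytes that citrullinates histones, was at 8.66 and 9.06 on the arrays labelled shMCT-1, against 8.73 and 9.02 on the NC arrays. The groups overlapped, and in each of them replicate 2 was higher than replicate 1. The difference was -0.019 (SE 0.192, 95% interval -0.52 to 0.48). Granulocyte markers were mostly at background on the same arrays. Of 14 such markers 3 lay above it, Cxcr2, S100a8 and S100a9, all with mean signals under 5, and Elane, Mpo and Ly6g lay below. S100a8 passed background on the NC arrays only, at 3.65 and 3.61 on the arrays labelled shMCT-1, against 4.50 and 4.29 on the NC arrays, a difference of -0.76 (SE 0.124). The part of such cells in the values was not tested. The mean signal of that list was 3.46 and 3.39 on the arrays labelled shMCT-1 and 3.52 and 3.43 on the NC arrays. Padi6, the oocyte deiminase and the remaining gene of the family, had a mean signal of 2.96 over the 4 arrays, below the receptor background, and a difference of 0.075.

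The Padi genes form 1 cluster on mouse chromosome 4, in the order Padi6, Padi4, Padi3, Padi1 and Padi2 in the RefSeq annotation of GRCm38.p6, with Padi2 on the opposite strand from the rest. Padi3 therefore lies between Padi4 and Padi1, whose differences were -0.019 and 0.15. The 3 measured protein-coding genes on each side of the cluster were also close between groups. On the Padi6 side, the differences were 0.12 for Rcc2, a regulator of mitosis, 0.00056 for Arhgef10l and 0.038 for Igsf21, a gene at background. On the Padi2 side they were -0.082 for Sdhb, a subunit of succinate dehydrogenase, -0.025 for Atp13a2, a lysosomal ATPase, and -0.0051 for Mfap2, a microfibril protein at background. Each of these 6 intervals included 0, as did those of the other 4 Padi genes. Whether the difference of Padi3 exceeds that of its neighbours was not tested.

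**Figure D2:**
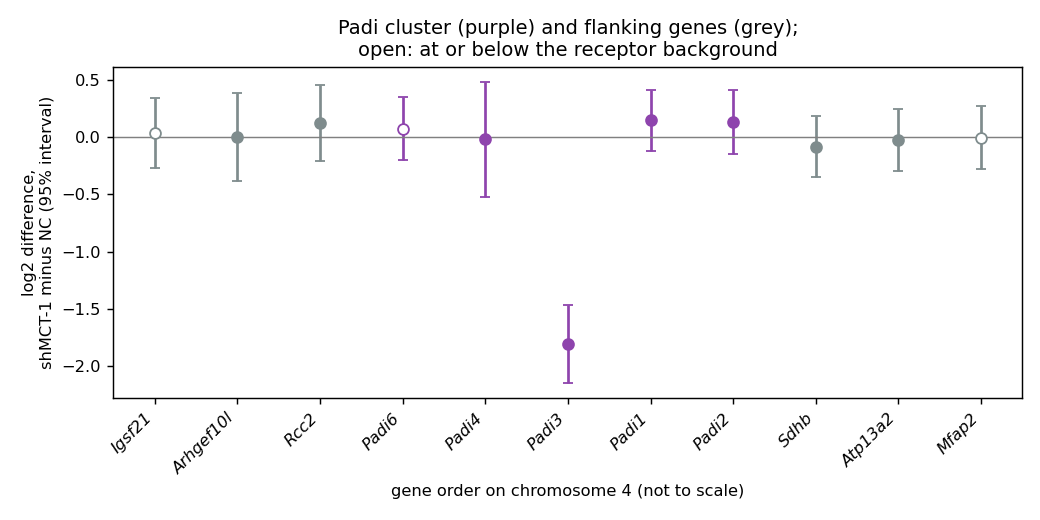
Log2 difference, shMCT-1 minus NC (vertical axis, limma 95% intervals, 2 arrays each), of the Padi genes (purple) and the 3 measured protein-coding genes on each side (grey), in their order along chromosome 4. Open symbols mark genes at or below the receptor background. Padi3 at -1.80 stands apart, and the other 10 genes lie between -0.082 and 0.15.

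The start regions of Padi3, of Padi4 and Padi1 on either side of it, and of Padi2 are shown so that the gene that differed can be set beside neighbours that were close between groups. The sequences are from RefSeq (GRCm38.p6), each 300 bases from 250 before to 50 after the annotated start, 5′ to 3′ along the gene. They are chr4:140810599-140810898, chr4:140774154-140774453 and chr4:140845729-140846028 on the minus strand and chr4:140906110-140906409 on the plus strand. Capitals mark matches on either strand to a TATA box (spelled TATAAA), the letters CCAAT, a GC box (spelled GGGCGG), an AP-1 site (spelled TGANTCA) or an E-box (spelled CACGTG).
Padi3: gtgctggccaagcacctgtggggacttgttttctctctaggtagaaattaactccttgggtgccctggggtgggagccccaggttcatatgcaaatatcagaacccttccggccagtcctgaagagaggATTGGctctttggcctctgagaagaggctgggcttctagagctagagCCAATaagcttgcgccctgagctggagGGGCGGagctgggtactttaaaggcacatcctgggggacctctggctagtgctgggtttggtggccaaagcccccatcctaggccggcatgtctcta
Padi4: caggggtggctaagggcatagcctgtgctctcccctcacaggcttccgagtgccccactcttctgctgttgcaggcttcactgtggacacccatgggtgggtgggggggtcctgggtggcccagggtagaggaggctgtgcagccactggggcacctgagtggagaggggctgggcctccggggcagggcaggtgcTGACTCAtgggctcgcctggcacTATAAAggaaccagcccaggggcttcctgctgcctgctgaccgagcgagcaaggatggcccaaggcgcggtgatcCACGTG
Padi1: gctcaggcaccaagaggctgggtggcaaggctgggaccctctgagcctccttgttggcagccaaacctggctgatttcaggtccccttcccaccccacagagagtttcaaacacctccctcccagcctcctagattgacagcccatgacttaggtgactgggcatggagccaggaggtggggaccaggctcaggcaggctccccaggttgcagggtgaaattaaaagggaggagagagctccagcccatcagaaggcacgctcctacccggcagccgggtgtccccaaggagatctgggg
Padi2: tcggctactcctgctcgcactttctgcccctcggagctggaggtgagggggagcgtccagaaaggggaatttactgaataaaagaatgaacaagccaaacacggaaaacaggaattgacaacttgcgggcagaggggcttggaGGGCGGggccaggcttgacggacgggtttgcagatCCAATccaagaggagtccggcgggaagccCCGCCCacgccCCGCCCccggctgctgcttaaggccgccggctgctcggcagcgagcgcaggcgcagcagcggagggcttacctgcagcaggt
In Padi3, CCAAT began 74 bases before the start, its reverse complement 121 bases before, and GGGCGG 47 bases before. Padi4 held a TATA box 31 bases before the start, TGACTCA 54 bases before and CACGTG at base 45 after it. Padi2 held CCAAT 72 bases before the start and 3 GC boxes, and Padi1 held 0 matches. No 2 of these matches overlapped. CCAAT occurred in 37.4% and GGGCGG in 35.7% of all 32851 start regions of this length, TATAAA in 13.6%, TGANTCA in 7.81% and CACGTG in 7.15%. The matches are letters only, and no binding was measured.

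Among the envelope genes, Ppl and Ivl were lower on both arrays labelled shMCT-1 than on both NC arrays. Ppl encodes periplakin, a plakin that links the envelope to keratin filaments. It was at 8.38 and 8.31 on the arrays labelled shMCT-1, against 8.92 and 8.71 on the NC arrays. The difference was -0.47 (SE 0.124, 95% interval -0.79 to -0.14), or 1.38-fold lower, and it was -0.37 without NC replicate 1 and -0.57 without NC replicate 2. Ivl encodes involucrin, the scaffold onto which other envelope proteins are joined. It was dim, at 4.31 and 4.23, against 4.51 and 4.72 on the NC arrays. Its difference was -0.35 (SE 0.126, 95% interval -0.67 to -0.017), -0.45 without NC replicate 1 and -0.24 without NC replicate 2.

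Evpl, which encodes envoplakin, the partner of periplakin, lay at the edge of background. It was at 4.05 and 3.95 on the arrays labelled shMCT-1, against 3.84 and 3.84 on the NC arrays, so that it passed the receptor background of 3.92 on the arrays labelled shMCT-1 only. The difference of 0.16 (SE 0.106, 95% interval -0.12 to 0.44) ran opposite to that of Ppl. Sprr1a, a small proline-rich envelope protein, was at background on all arrays, at 3.59 and 3.53 on the arrays labelled shMCT-1 and 3.58 and 3.44 on the NC arrays. Its groups overlapped (difference 0.047, SE 0.112), and at this signal a change of the transcript could go unseen.

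Tgm1 encodes the membrane-bound transglutaminase of keratinocytes that joins involucrin and the other precursors. It was at 6.34 and 5.61 on the arrays labelled shMCT-1, against 6.43 and 5.62 on the NC arrays. Replicate 1 was higher than replicate 2 by 0.72 on the arrays labelled shMCT-1 and by 0.81 on the NC arrays, while the groups differed by -0.053 (SE 0.367, 95% interval -1.01 to 0.91). Its groups overlapped, and the sign of the difference turned with the array left out, from -0.46 to 0.35. Taken by replicate number, the difference was -0.094 for replicate 1 and -0.011 for replicate 2. Padi4 had the opposite order, with replicate 1 minus replicate 2 at -0.41 on the arrays labelled shMCT-1 and -0.29 on the NC arrays. For the other 7 genes the replicates of a group differed by at most 0.25. The sources used here do not say what replicates with the same number share.

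**Figure D3:**
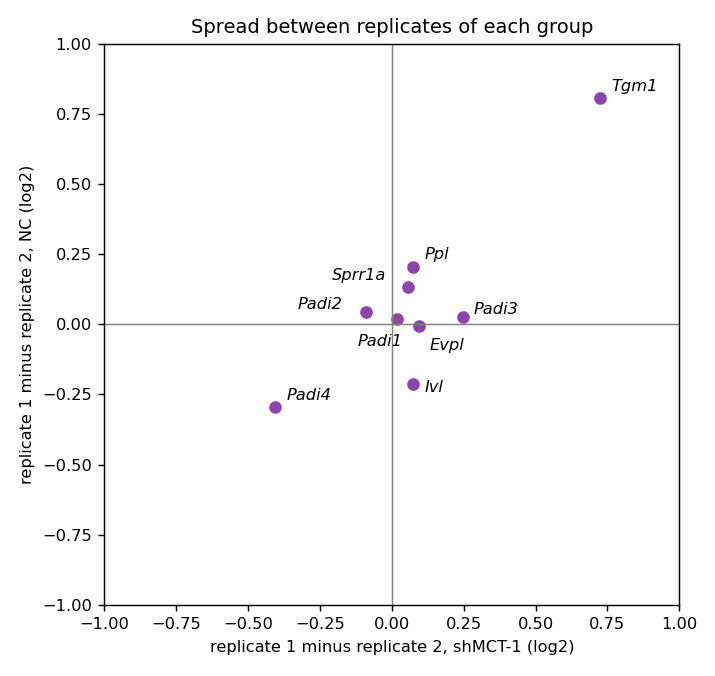
Replicate 1 minus replicate 2 in log2 units on the arrays labelled shMCT-1 (horizontal axis) and on the NC arrays (vertical axis) for the 9 genes. Tgm1 at 0.72 and 0.81 and Padi4 at -0.41 and -0.29 lie away from 0 on both axes, and the other 7 genes lie within 0.25 of 0.

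Over the 9 genes, the 2 groups did not overlap for 6. Padi3, Ppl and Ivl were lower on both arrays labelled shMCT-1, 3 of 9 against 16% of all 30142 genes, and Padi1, Padi2 and Evpl were higher on both, 3 of 9 against 19%. All of these were among the 8 genes above background. Of the 16288 genes above background, 19.1% were lower and 18.9% higher. The shares over all genes depended on the scaling: 20.2% lower and 15.9% higher after a further quantile normalisation, and 21.2% and 13.8% after centring each array on its median. The median difference of the 9 genes was -0.019, against 0.014 over all genes. Its sign turned with the array left out: it was 0.11 without NC replicate 1, 0.019 without shMCT-1 replicate 1, 0.076 without shMCT-1 replicate 2 and -0.019 without NC replicate 2. In limma 0 of 65956 rows, or 0%, had an adjusted p under 0.05, so none of the 9 genes passed, and their adjusted p ran from 0.669 for Padi3 to 0.996 for Padi4. At an unadjusted p under 0.05 there were 3 of the 9, Padi3, Ppl and Ivl, against 5.59% of all genes. As the genes were chosen with results of this comparison known, these counts do not set them apart from other genes. With 2 arrays against 2, the smallest p of an exact two-sided permutation test is 0.333.

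**Figure D4:**
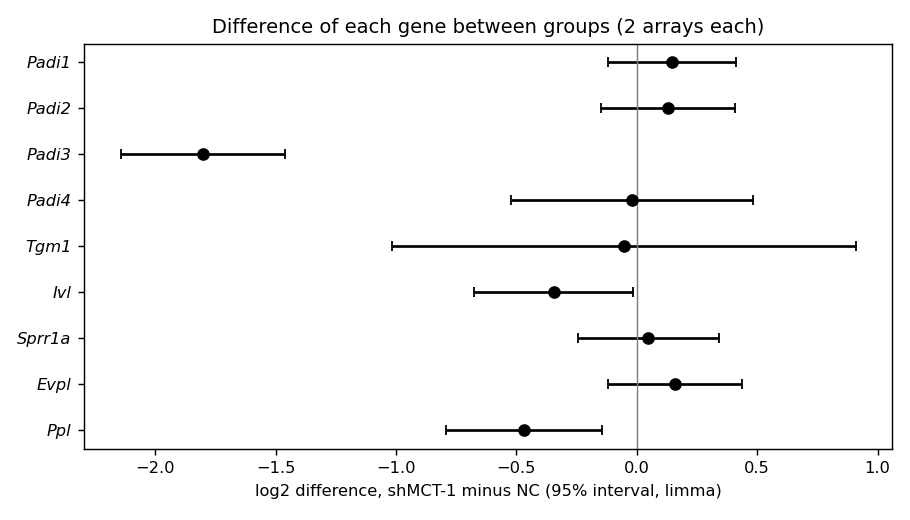
Log2 difference, shMCT-1 minus NC (horizontal axis), of each of the 9 genes with its 95% interval from limma, 2 arrays in each group. The intervals of Padi3, Ppl and Ivl lie below 0, and those of the other 6 genes include 0.

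Most genes of the wider programme of cornification and epidermal differentiation lay at or below background in these cells, though not in every list. Of 130 further genes in 10 lists, 120 had a row of their own. Of these, 43 lay above the receptor background and 77 did not, beside 16288 and 13854 of all 30142 genes. None of the 120 passed the adjusted threshold in limma, and 10 had an unadjusted p under 0.05, 1 higher and 9 lower, beside 1686 of all 30142 genes, 698 higher and 988 lower. Of the 120, 58 were higher and 62 lower, with a median difference of -0.0045, against 0.014 over all genes. Both arrays labelled shMCT-1 lay above both NC arrays for 18 of the 120 genes and below for 24, beside the 19% and 16% of all genes. For the 43 above background these counts were 3 and 13, beside 18.9% higher and 19.1% lower of the 16288 genes above background, and their median difference was -0.077, against 0.016. These shares are for the values as deposited. As the lists were chosen with earlier results of these data known, the counts do not set their genes apart from other genes.

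Of the other 7 transglutaminase genes, 1 lay above background. This was Tgm2, the widely expressed tissue transglutaminase, at 8.15 and 7.70 on the arrays labelled shMCT-1, against 9.30 and 8.11 on the NC arrays. NC replicate 1 was the highest of the 4 and the groups overlapped, and the difference of -0.78 (SE 0.428) was -0.18 without that array. Tgm3, Tgm4, Tgm5, Tgm6, Tgm7 and F13a1 lay below background, with differences from -0.14 to 0.10.

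Of 12 further small proline-rich genes with a row, Sprr2h alone lay above background, at 4.43 and 4.23 on the arrays labelled shMCT-1, against 4.55 and 4.54 on the NC arrays. Of 38 further envelope proteins and late keratins, 10 lay above background, with 1 higher (Lce1b, at 0.13, named after its value was seen) and 2 lower (Lce1h and Lce1c) on both arrays labelled shMCT-1, beside 18.9% and 19.1% of all genes above background. The late cornified envelope gene Lce1h was at 5.45 and 5.32, against 5.81 and 5.89 on the NC arrays, a difference of -0.46 (SE 0.113). Lce1c was at -0.28 (SE 0.105) and Lce3c at 0.15 (SE 0.139), which was 0.011 without NC replicate 1 and 0.29 without NC replicate 2. The Sprr2 and Lce genes are families of close copies, and probes of one may pick up another, which makes single values uncertain. The loricrin gene Lor and the suprabasal keratin gene Krt1 were at background.

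The remaining plakins were bright. Dsp, the desmosomal plakin, was at 11.70 and 10.97 on the arrays labelled shMCT-1, against 12.22 and 11.45 on the NC arrays, and its groups overlapped. The difference was -0.51 (SE 0.359), and -0.12 without NC replicate 1, but -0.53 and -0.48 for replicate numbers 1 and 2. Dst and Plec, which anchor keratin filaments at hemidesmosomes, had differences of 0.083 and 0.0064. With 1 array left out Dst ran from 0.032 (without NC replicate 1) to 0.13, and Plec turned sign, from -0.28 (without NC replicate 1) to 0.30 (without NC replicate 2).

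Cers3, the ceramide synthase that makes the very long ceramides of the skin barrier, had the lowest difference among the lipid envelope genes. It was at 5.79 and 5.70 on the arrays labelled shMCT-1, against 7.24 and 6.66 on the NC arrays, without overlap. The difference was -1.21 (SE 0.216), -0.92 without NC replicate 1 and -1.50 without NC replicate 2. Of the 9 genes of that list 3 lay above background, and the other two, the lipoxygenase gene Aloxe3 (-0.051) and Nipal4 (0.18), were close between groups.

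Among proteases and inhibitors of cornification, 8 of 16 lay above background, of which 3 were lower and 0 higher on both arrays labelled shMCT-1, beside 19.1% and 18.9% of all genes above background. Prss8, the membrane-anchored protease prostasin, was at 8.45 and 8.37, against 8.94 and 8.90 on the NC arrays, a difference of -0.51 (SE 0.105) that ran from -0.55 to -0.47 with 1 array left out. Klk10, a kallikrein-related peptidase, was at 11.11 and 12.10, against 11.63 and 12.63 on the NC arrays, so its replicates lay further apart than its groups. Its difference of -0.52 (SE 0.469) was -0.022 without NC replicate 2, but -0.52 and -0.53 for replicate numbers 1 and 2. Klk6, of the same family, was at -0.33 (SE 0.344), at 0.13 without NC replicate 2 and at -0.80 without NC replicate 1.

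Regulators of epidermal differentiation went both ways. Trp63, the master regulator of stratified epithelia, Zfp750 and Cebpa were at background, and 10 of 16 regulators lay above it. The vitamin D receptor gene Vdr was at 5.73 and 5.22 on the arrays labelled shMCT-1, against 7.50 and 6.03 on the NC arrays. Its difference of -1.29 (SE 0.519) was -0.55 without NC replicate 1 and -2.03 without NC replicate 2, and -1.77 and -0.81 for replicate numbers 1 and 2. Ehf, an epithelial ETS factor, had a difference of -0.67 (SE 0.328). It was -0.23 without NC replicate 1 and -1.10 without NC replicate 2, and -0.90 and -0.44 for replicate numbers 1 and 2. Fosl1, a subunit of AP-1, was the 1 gene of these lists with a difference above 0.5, at 8.75 and 9.44, against 7.68 and 8.62 on the NC arrays. Its difference was 0.94 (SE 0.394), and 0.47 without NC replicate 1, but 1.07 and 0.82 for replicate numbers 1 and 2.

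Hair follicle genes were nearly all at background, including the inner root sheath keratins Krt25 and Krt71, and the deiminase substrate Tchh lay below it too. Of 11 measured hair follicle genes 2 lay above it, Krt27 (0.044) and Foxn1. Foxn1, a transcription factor of the hair follicle and the thymus, was at 4.54 and 4.03 on the arrays labelled shMCT-1, against 6.25 and 4.99 on the NC arrays. Its difference of -1.34 (SE 0.454) was -0.71 without NC replicate 1 and -1.97 without NC replicate 2. Of 7 basal epidermal genes, 5 lay above background. The basal keratin genes Krt14 (-1.68, SE 0.118) and Krt17 (-0.75, SE 0.145) were lower on both arrays labelled shMCT-1. Itgb4, an integrin of hemidesmosomes, was at -0.23 (SE 0.163), from -0.41 without NC replicate 1 to -0.058 without NC replicate 2, and Krt5, the partner of Krt14, was at 0.10.

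**Figure D5:**
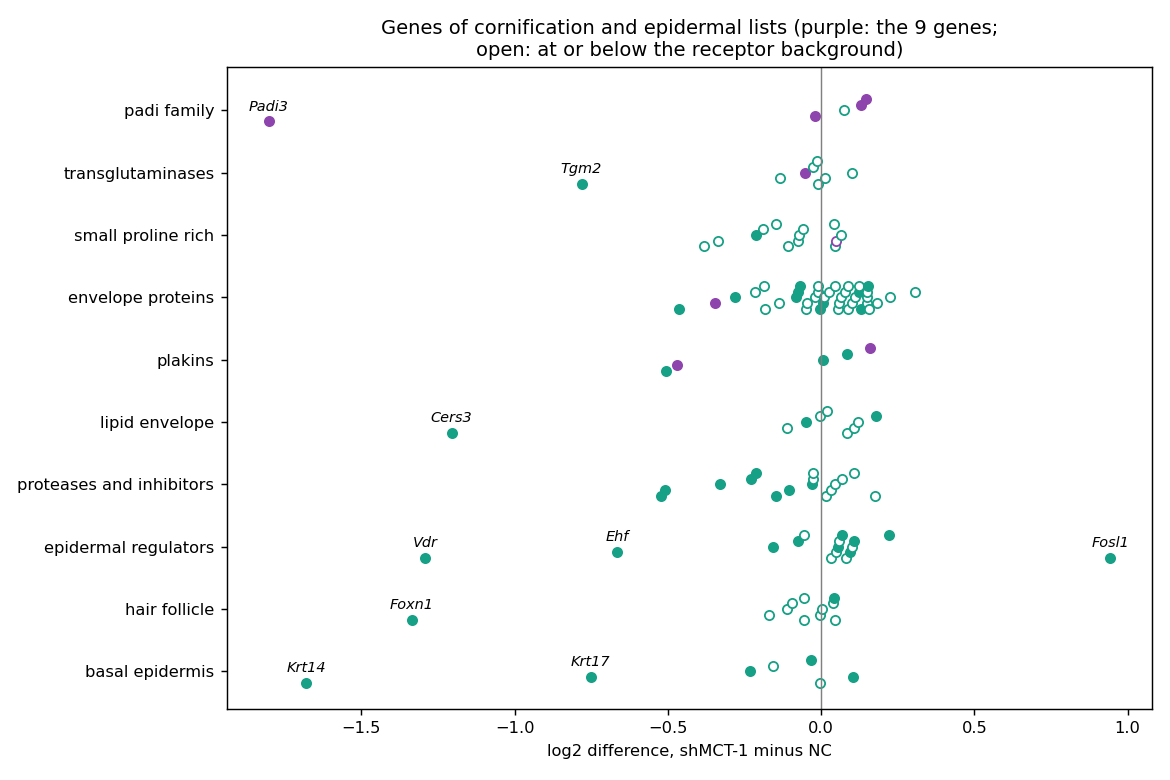
Log2 difference, shMCT-1 minus NC (horizontal axis), of each measured gene in 10 lists of cornification and epidermal genes, with the 9 genes in purple and genes at or below the receptor background as open symbols. Symbols are spread vertically within a list for legibility. Padi3 (-1.80) and Krt14 (-1.68) lie furthest to the left and Fosl1 (0.94) furthest to the right, and none passed the adjusted threshold.

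The genes above background with the pattern closest to Padi3, by Euclidean distance between mean-centred log2 values over the 4 arrays, were Prl2a1, Krt14, B4galt6 and Prl2c2, out of 16288 genes. Their distances were 0.25, 0.28, 0.33 and 0.33 log2 units. Prl2a1, a gene of the placental prolactin family, was at 9.32 and 9.22 on the arrays labelled shMCT-1, against 11.22 and 10.88 on the NC arrays. Prl2c2, of the same family, was at 12.16 and 12.08, against 13.90 and 13.53 on the NC arrays. It has near-identical copies, so its own value is uncertain. B4galt6, a galactosyltransferase of glycosphingolipid synthesis, was at 7.11 and 7.03, against 8.95 and 8.53 on the NC arrays. The genes closest to Ppl were 3830403N18Rik, Gm13104, the kinesin gene Kif13a and the tankyrase gene Tnks, at distances of 0.011 to 0.042, with differences from -0.49 to -0.45. Likeness over 4 arrays is given as a description only.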

How the data were processed

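RNA of 4T1 cells was measured on 4 arrays, 2 labelled shMCT-1 and 2 NC, grouped by title. The deposited values are log2 signals that the authors made with Affymetrix Expression Console and RMA at gene level, per the submitters' processing notes. The sources used here give no versions, no genome build and no step beyond RMA. RMA compresses dim signals, so log2 differences there may understate a change. Whether very bright signals are compressed in these values is not known from the sources. The values ran from 1.29 to 19.9 and were used as deposited.

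The platform annotation gave 1 symbol to 30604 of 65956 rows, several to 2146 and none to 33206, and 827 symbols were updated by gene ID. Each gene was represented by its brightest row. Differences, shMCT-1 minus NC, were fitted on all rows with limma 3.58.1 in R 4.3.3 (lmFit and eBayes, two-sided, Benjamini-Hochberg, threshold 0.05, 2 residual and 2.72 prior degrees of freedom). The fit was tested on simulated data. The number of arrays limits the precision.

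The members and lists were chosen with earlier results of these data known. Genes were named by rule: the members, their families, up to 3 genes above background with the largest difference per list, 3 neighbours on each side of the Padi cluster, and the 4 genes most like each of the 2 members with the largest difference. Krt5, Lce1b, Krt19, Cdh1, S100a8 and the genes named as at background were picked with their values in view. The interferon-induced genes were listed with NC replicate 1 already known to be high in them. The shift of the 9-gene median with an array left out was judged against the SD between replicates of the median of the 9 genes, each centred on its own mean. That spread was chosen with the shifts already known, in place of the SD of uncentred medians, which followed a single gene. The alternatives comprised robust moderation, a variance trend, 2 rescalings, a filter at the receptor background, the mean over a gene's rows, the replicate number as a block, and each array left out.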

Additional observations from a re-analysis of the deposited data

How the results depend on the processing

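With each array left out, the difference of Padi3 stayed between -1.93 and -1.68, and under the other settings between -1.83 and -1.80. The signs of Padi1, Padi2, Padi3, Ivl, Evpl and Ppl were the same under every setting tried. As the groups of these genes did not overlap, leaving out 1 array could not turn their signs. Only the 2 rescalings could have done so. Leaving out 1 array turned the sign of Padi4 (-0.22 to 0.18), Tgm1 (-0.46 to 0.35) and Sprr1a (-0.019 to 0.11). In limma, 0 rows had an adjusted p under 0.05 under all 11 alternatives. Rows with an unadjusted p under 0.05 numbered 3698, and from 1676 (of the 28581 rows above the receptor background) to 7537 (replicate block), and without NC replicate 1 there were 1984. The groups did not overlap for 10534 genes, for 6187 of the genes above the receptor background, where fewer genes enter, and for 18499 to 21717 with 1 array left out, where 1 array against 2 separates more easily.

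The labels name no culture, day or clone that arrays with the same replicate number share. The deviations of same-numbered arrays from their group means correlated at 0.419 over all rows and at 0.594 over rows above the receptor background. A difference with 1 array left out also holds part of any gap between replicate numbers. Each group holds 1 array of each replicate number, so the replicate block cannot change a difference between groups. The median difference of the 9 genes thus stayed at -0.019. The block does change the SE. In limma 0 rows passed the adjusted threshold with or without it, and the adjusted p of Padi3 was 0.275, against 0.669 without the block. Variance settings and the block leave the overlap of groups as it is. Sprr1a, Evpl and Ivl lie so near background that their signal limits what can be seen. The median difference of the 9 genes, -0.019, ran from -0.019 to 0.11 with 1 array left out.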

Other observations

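In Klk10, Fosl1 and Dsp, of the fixed lists, the replicates of both groups were ordered alike, as for Tgm1 and Padi4. Such an order was not particular to these genes. Replicate 1 minus replicate 2 had the same sign in both groups for 6 of the 9 members. Deviations of same-numbered arrays correlated at 0.594 over all rows above the receptor background. Klk10 was lower in replicate 1, at 11.11 against 12.10 in replicate 2 on the arrays labelled shMCT-1 and at 11.63 against 12.63 on the NC arrays. Fosl1 was also lower in replicate 1, by 0.69 on the arrays labelled shMCT-1 and by 0.94 on the NC arrays. Dsp was higher in replicate 1, by 0.73 on the arrays labelled shMCT-1 and 0.77 on the NC arrays. These genes were picked after their values were seen. What distinguishes the replicate numbers was not tested.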
